A study of Mus musculus with 3 samples.

Results

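Small and inducible heat shock proteins were followed across the cells of the mouse intervertebral disc at postnatal day 30. All 8 genes chosen by symbol were found in the deposited gene lists, among 30406 genes shared by the libraries: the small heat shock proteins Hspb1, Hspb6, Hspb8 and Cryab, and the inducible chaperones and co-chaperones Hspa1a, Hspa1b, Dnajb1 and Hsph1. All 8 passed the filter on low counts, which left 13446 genes tested. The mice were untreated and of genotype shh-cre:R26R-tdTomato, in which Cre from Shh switches on the red protein tdTomato in cells that expressed Shh and in their descendants, so the notochord and the nucleus pulposus that forms from it carry the label. Whole lumbar, thoracic and caudal discs were digested in collagenase for 30 minutes, enriched for tdTomato by sorting and profiled as single cells, in 3 libraries of 1 group that each pooled animals of a litter. The design has no second condition, so the comparisons here are between cell types within the 3 libraries. The p-values measure how far the differences between cell types varied from pool to pool. They do not measure the spread in level between the pools, which the library block takes out.

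Heat shock proteins keep other proteins from aggregating and help them to fold again. The small heat shock proteins hold unfolded clients without using ATP, and several of them are made constitutively in muscle, lens and other cells under mechanical or oxidative load. The inducible Hsp70 proteins, which need ATP, work with the J-domain partner Dnajb1 and the exchange factor Hsph1, and their genes are switched on by heat shock factor 1 during stress, also while tissue is being digested into cells. The nucleus pulposus is the gel-like core of the disc, a tissue with no blood vessels of its own.

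Heat shock factor binds repeats of the letters NGAAN in alternating directions, so the promoter windows of the members were searched for the paired forms GAANNTTC and TTCNNGAA. Each of these reads the same on both strands, and the forms can overlap where repeats follow each other. Windows from RefSeq on GRCm38.p6, running from 250 bases before to 50 bases after each start, were present for 7 of the 8 members. Cryab has none in that table. At least 1 window of 6 members held a match, whereas 15.1% of all 32851 windows and 17.0% of the 27025 genes with a window did. Hspb1 held 2 matches in its window, 117 and 97 bases before the start, and Hspb6 had 1 in the second of its windows, 120 bases before. Both Hsp70 genes had 1 at 104 bases before the start, and that of Hspb8 began 2 bases after the start. Hsph1 held 3 in the window of the first of its starts, 1 at 54 bases before and 2 that overlap, beginning 15 and 20 bases after, and its second window covers the same 3. Neither window of Dnajb1 held a match. The 250 bases before the start are printed for Hspb1 and Hspb8, which with Cryab were the small members higher in nucleus pulposus cells, and for the Hsp70 pair, with the matched letters in capitals. The Hspb8 stretch has none, since its match lies after the start.
Hspb1, chr5:135887669-135887918, plus strand: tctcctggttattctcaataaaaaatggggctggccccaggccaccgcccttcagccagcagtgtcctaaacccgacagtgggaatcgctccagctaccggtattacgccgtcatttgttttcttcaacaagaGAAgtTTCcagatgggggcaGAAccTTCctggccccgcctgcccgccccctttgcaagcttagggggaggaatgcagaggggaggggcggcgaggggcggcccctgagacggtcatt
Hspb8, chr5:116422865-116423114, minus strand: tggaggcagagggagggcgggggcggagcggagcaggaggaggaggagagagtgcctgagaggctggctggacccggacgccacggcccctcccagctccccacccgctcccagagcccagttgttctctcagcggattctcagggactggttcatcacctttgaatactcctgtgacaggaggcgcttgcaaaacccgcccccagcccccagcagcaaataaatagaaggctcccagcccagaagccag
Hspa1a, chr17:34972157-34972406, minus strand: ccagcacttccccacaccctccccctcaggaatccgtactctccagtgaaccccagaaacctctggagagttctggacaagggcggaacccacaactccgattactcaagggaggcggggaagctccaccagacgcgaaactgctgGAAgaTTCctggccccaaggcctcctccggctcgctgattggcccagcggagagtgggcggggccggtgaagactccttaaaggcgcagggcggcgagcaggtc
Hspa1b, chr17:34959239-34959488, minus strand: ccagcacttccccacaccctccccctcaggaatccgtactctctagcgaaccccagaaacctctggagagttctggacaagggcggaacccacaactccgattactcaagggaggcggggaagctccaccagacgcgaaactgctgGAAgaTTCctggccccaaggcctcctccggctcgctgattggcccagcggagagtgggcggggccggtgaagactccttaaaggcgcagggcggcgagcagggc
Counted from 1 at the 5′ end, Hspa1b differed from Hspa1a in these bases by C44T, T47C and T249G, with the base of Hspa1a given first. A match is a description of the letters only. It was not tested whether any of these windows is bound in disc cells.

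Cells were sorted into classes by markers that include none of the 8 genes. Of 5732, 10786 and 10364 cells kept in libraries 1, 2 and 3, 546, 112 and 27 were taken as nucleus pulposus cells. They held at least 2 of Krt8, Krt18, Krt19 and T, the markers the series names for nucleus pulposus. They passed no blood, endothelial, mural, muscle or Schwann gate, but could also pass the connective gate. Krt19 was detected in 98.4% and 99.1% of these cells in libraries 1 and 2 and in all 27 of library 3. Connective cells, with cartilage, bone, annulus, stromal or fibroblast markers, numbered 1132, 632 and 850, endothelial cells 70, 30 and 30, and blood cells 2381, 7709 and 5793. Although the discs had been sorted for tdTomato, nucleus pulposus cells made up 9.53%, 1.04% and 0.261% of the kept cells, and blood cells 41.5%, 71.5% and 55.9%. The classes held 3472971 UMIs (unique molecular identifiers, the counted molecules) of nucleus pulposus, 34453971 of connective, 711632 of endothelial and 146583529 of blood cells. The nucleus pulposus sum of library 3 held only 94659 UMIs.

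The libraries were not alike. Nucleus pulposus cells with under 1% of their UMIs from mitochondrial genes made up 82.1%, 32.1% and 63.0% of the class in libraries 1, 2 and 3. Such cells made up 1.86%, 0.949% and 1.18% of connective cells and 34.1%, 24.3% and 23.4% of blood cells. Among endothelial cells they were 0% in each library. Cell class and mitochondrial share thus went partly together. Among connective cells, 969, 321 and 53 were chondrocyte-like and 52, 225 and 665 osteoblast-like, in that order of libraries. Libraries 2 and 3 shared 224 cell barcodes, against 24 and 29 shared with library 1. Cells that passed more than 1 gate, 1503, 2159 and 3490, were left out as possible doublets or mixed droplets. Nucleus pulposus cells that also passed only the connective gate were kept. Markers of other types were also read in the nucleus pulposus sums, in CPM (counts in each 1000000 UMIs of a sum). The gate allowed connective markers there, and these were uneven. The 5 general connective markers summed to 1687, 213 and 37704 CPM in nucleus pulposus cells of libraries 1, 2 and 3, against 15929, 95351 and 171222 CPM in connective cells. The 8 osteoblast markers summed to 150, 10.1 and 5969 CPM in nucleus pulposus cells, against 2066, 22593 and 54877 CPM in connective cells, and the 9 chondrocyte markers to 8938, 7334 and 1764 CPM, against 47888, 24088 and 1831 CPM. Library 3 thus had the highest general connective and osteoblast sums in its 27 nucleus pulposus cells. Of types without a class, the 6 mural markers reached 899 to 1627 there with the defining gene Rgs5 at 0, the 6 Schwann or glial markers 380 to 599 CPM with Sox10 and Foxd3 at 0, and the 6 muscle markers 0 to 13.7 CPM. Their part in the results was not tested.

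As a class, nucleus pulposus cells were high in Hspb1 and Cryab RNA and, at a lower level, in Hspb8. Against connective cells, 3 of the 8 members were higher and 0 lower, where 16.2% of all genes were called, 7.15% higher and 9.04% lower (edgeR's quasi-likelihood test, Benjamini-Hochberg adjusted p under 0.05). At an unadjusted p under 0.05, and also by DESeq2, 1 member was lower, Hspa1b. Against endothelial cells 3 members were higher and 2 lower, where 28.5% of all genes were called, 16.1% higher and 12.3% lower. Against blood cells it was again 3 higher and 2 lower, where 52.1% of all genes were called, 26.5% higher and 25.5% lower, so more than every second gene differed there. The median log2 difference of the 8 members was 0.20, 0.70 and 0.30 over connective, endothelial and blood cells, against -0.16, 0.23 and -0.08 for all genes tested. Without library 2, 576 genes were called between nucleus pulposus and connective cells, against 2176 with all libraries, and the number of members called was 3 in both. Without library 3, where connective markers were highest, the same comparison called Hspb1 (4.48), Hspb8 (2.18) and Cryab (2.70). Between nucleus pulposus and endothelial cells 2017 genes were called without library 1 and 2219 without library 2, against 3829, with 4 members called each time.

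**Figure D1:**
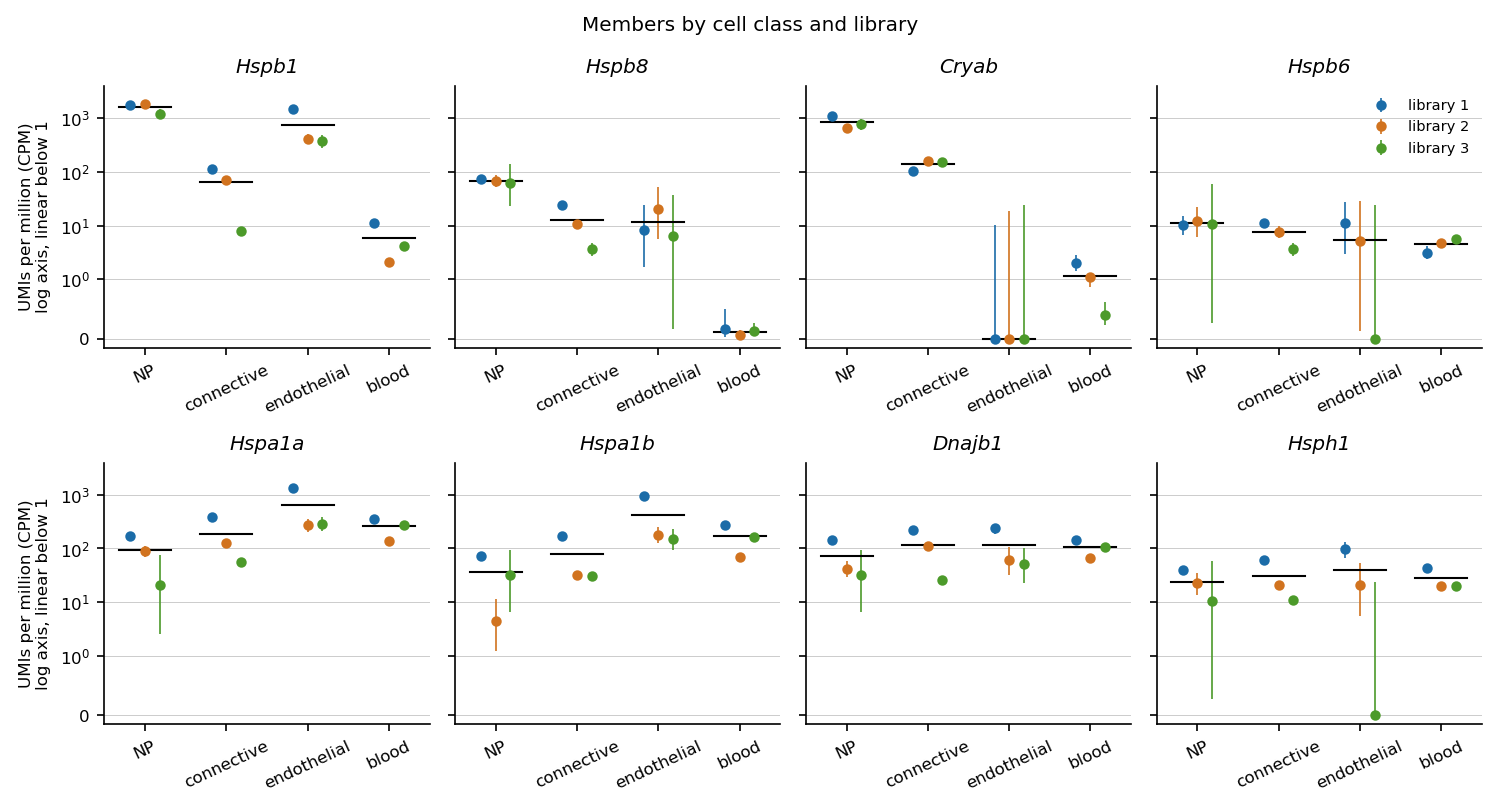
Level of each of the 8 genes in CPM (log axis that is linear below 1) in nucleus pulposus, connective, endothelial and blood cells. Each point is 1 library with its exact 95% Poisson interval and the black line is the mean of the 3 libraries. Hspb1 lies between 1225 and 1877 CPM in nucleus pulposus cells and between 2.10 and 11.1 CPM in blood cells, and Cryab is at 0 in all 3 endothelial sums.

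Hspb1 (chromosome 5, 135887919 to 135889563, plus strand, GRCm38) encodes Hsp27, a small heat shock protein that also acts on actin filaments. Its level was 1801, 1877 and 1225 CPM in the nucleus pulposus cells of libraries 1, 2 and 3, with a mean of 1634 ± 356 (SD, n = 3). Connective cells had 114, 69.7 and 7.84 CPM (63.9 ± 53.4), endothelial cells 1470, 412 and 373 CPM (752 ± 623) and blood cells 11.1, 2.10 and 4.13 CPM (5.78 ± 4.72). The nucleus pulposus values did not overlap with those of connective or blood cells, but the endothelial value of library 1 lay within their range. On the log2 scale with TMM scaling (a correction for a few genes taking a large share of a library), Hspb1 was higher in nucleus pulposus cells by 4.96 over connective cells (SE 0.62, adjusted p = 0.000124). Over blood cells the log2 difference was 8.06 (SE 0.71, adjusted p = 4.06e-07). Over endothelial cells it was 1.98 (SE 0.56, adjusted p = 0.0165), with the higher value in nucleus pulposus in 3 of 3 libraries. This last call was lost without library 2 (1.61, adjusted p = 0.0576), without nucleus pulposus and other cells under 1% mitochondrial (1.33, adjusted p = 0.140) and without the library as a block (1.70, adjusted p = 0.155).

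Endothelial cells were the second class with Hspb1. Connective cells lay below them, with a log2 difference of -2.98 (SE 0.58, adjusted p = 0.0015), and all 3 connective values were below all 3 endothelial values. Over blood cells the difference was 3.10 in connective (SE 0.59, adjusted p = 0.000363, with the connective value of library 3 inside the blood range) and 6.08 in endothelial cells (SE 0.65, adjusted p = 4.12e-06). Without library 2 the difference of connective over endothelial cells was -3.73, and that over blood cells was 2.14 without library 2 and 3.94 without library 3, all called. The order nucleus pulposus, endothelial, connective, blood thus had a called difference at each step. The share of cells with an Hspb1 UMI had the same order in each library. With each cell thinned to 2000 UMIs it was 84.9%, 90.7% and 71.4% of nucleus pulposus cells (90.5%, 98.2% and 85.2% unthinned, median 2744, 7549 and 2069 UMIs). In B lineage-like cells it was 3.58%, 0.372% and 1.56% (5.48%, 0.747% and 2.48% unthinned, median 2691, 3565 and 2547 UMIs). In between lay 73.0%, 42.9% and 55.2% of endothelial cells (88.6%, 70.0% and 60.0% unthinned) and 11.9%, 6.33% and 2.65% of connective cells (24.7%, 15.03% and 6.24% unthinned). Cells with fewer UMIs were left out, which took 181, 15 and 13 of the nucleus pulposus cells. The share of B lineage-like cells is not taken as a background, since blood sub-classes differed in Hspb1. Means were 12.0 CPM in B lineage-like and 11.0 CPM in macrophage or monocyte-like cells. Neutrophil-like cells had 2.49, erythroid-like cells 0.384 and T or NK-like cells 0 CPM.

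Hspb8 (chromosome 5, 116408491 to 116422864, minus strand) is a small heat shock protein that works with Bag3 in the selective autophagy of damaged proteins. Among the classes, Hspb8 was highest in the nucleus pulposus. It stood at 72.7, 67.6 and 63.4 CPM in nucleus pulposus cells (67.9 ± 4.65, SD, n = 3), from 181, 60 and 6 UMIs, against 24.3, 10.6 and 3.67 CPM in connective cells. Endothelial cells had 8.23, 20.6 and 6.54 CPM, which rest on 8 UMIs in all, and blood cells 14 UMIs in all, a mean of 0.12 CPM. The nucleus pulposus values did not overlap with those of any other class, but that of library 3 has an exact 95% Poisson interval of 23.3 to 138 CPM. Within the connective class, loose fibroblast-like cells reached 63.7 CPM (mean 44.2, from 33 UMIs), above the nucleus pulposus value of library 3. Annulus or tendon fibroblast-like cells reached 50.3 CPM (mean 33.4). With cells thinned to 2000 UMIs, an Hspb8 UMI was found in 11.8% and 12.4% of nucleus pulposus cells of libraries 1 and 2 and in 0 of 14 of library 3, which allows up to 23.2% (23.6%, 35.7% and 22.2% unthinned). The log2 difference was 2.46 over connective cells (SE 0.38, adjusted p = 0.000753), 3.25 over endothelial cells (SE 0.58, adjusted p = 0.000844) and 8.82 over blood cells (SE 0.53, adjusted p = 1.40e-08). Connective and endothelial cells did not pass the test against each other (0.79, SE 0.61, adjusted p = 0.380). Both were higher than blood cells, by 6.36 (adjusted p = 4.44e-08) and 5.58 (adjusted p = 0.000196). Single libraries moved these differences without ending a call. Over endothelial cells the nucleus pulposus difference was 2.47 without library 1 and 3.87 without library 2, and over blood cells it was 8.22 without library 2. Over blood cells the connective difference was 5.75 without library 2 and 7.09 without library 3, and the endothelial one 6.41 without library 1 and 4.35 without library 2.

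Cryab (chromosome 9, 50751325 to 50756636, plus strand), alpha B-crystallin, is a chaperone of lens and muscle that guards desmin and other filaments. It measured 1095, 658 and 771 CPM in nucleus pulposus cells (841 ± 227, SD, n = 3) and 105, 163 and 156 CPM in connective cells (141 ± 31.8). In endothelial cells it was at 0 in all 3 libraries, 0 of 711632 UMIs, and in blood cells at 2.03, 1.08 and 0.397 CPM. Nucleus pulposus and connective cells did not overlap, and neither overlapped with blood cells. The log2 difference of nucleus pulposus over connective cells was 2.26 (SE 0.48, adjusted p = 0.00779), and over blood cells 9.37 (SE 0.65, adjusted p = 1.65e-07). Against a floor of 3 UMIs over all endothelial cells, Cryab was at least 231-fold higher in nucleus pulposus and at least 33.4-fold higher in connective cells, on summed CPM. Connective cells exceeded blood cells by 7.11 (SE 0.60, adjusted p = 4.63e-07), or by 6.37 without library 3. With cells thinned to 2000 UMIs, a Cryab UMI was found in 69.9%, 56.7% and 64.3% of nucleus pulposus cells (81.9%, 87.5% and 66.7% unthinned). Among B lineage-like cells, the share was 0.537%, 0.140% and 0.202% (1.31%, 0.539% and 0.225% unthinned). Between endothelial and blood cells no fold is given, since the endothelial sums were at 0 and the blood level lay under that floor.

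Hspb6 (chromosome 7, 30552178 to 30555443, plus strand), Hsp20, known from smooth and cardiac muscle, stayed low. It had 10.4, 12.4 and 10.6 CPM in nucleus pulposus cells (38 UMIs in all) and 11.3, 7.65 and 3.67 CPM in connective cells. Endothelial cells had 11.0, 5.15 and 0 CPM from 5 UMIs, and blood cells 3.14, 4.74 and 5.72 CPM. The nucleus pulposus values were above all blood values, and overlapped with the other classes. It was called in 0 of 6 comparisons by edgeR, and had no unadjusted p under 0.05 and no call by DESeq2. Over blood cells the log2 difference was 1.04 (SE 0.52, adjusted p = 0.106), and became a call at adjusted p = 0.0306 without library 3.

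**Figure D2:**
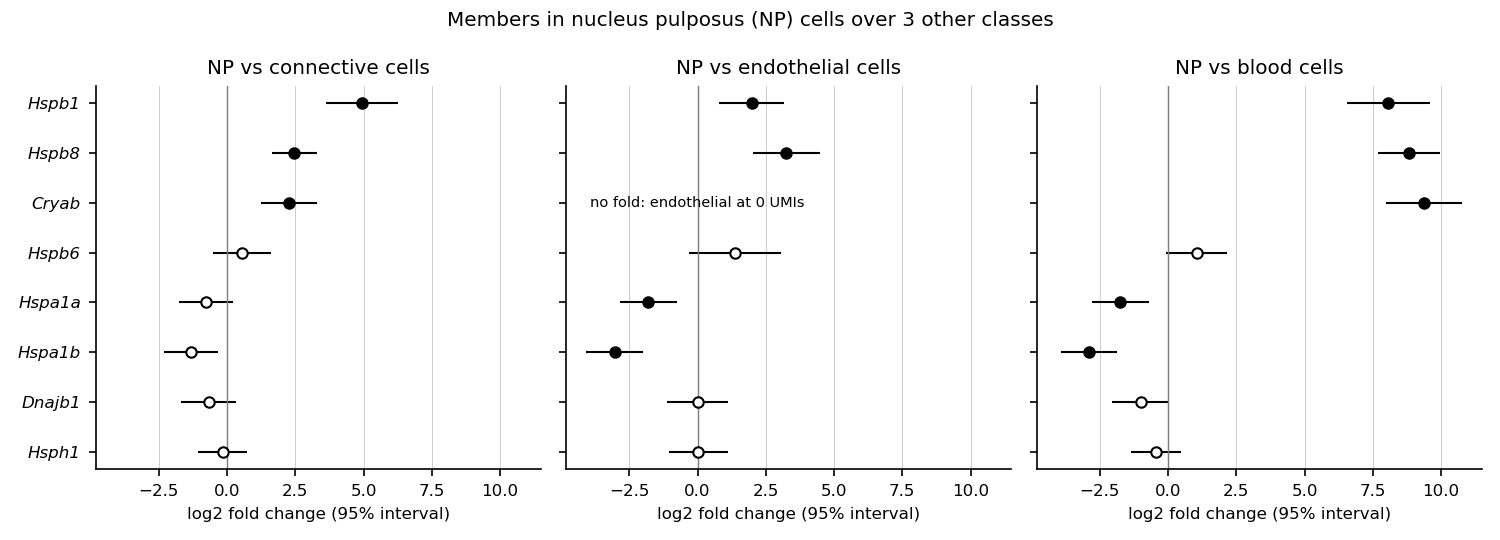
TMM-scaled log2 difference of each member in nucleus pulposus cells over connective, endothelial and blood cells, with 95% intervals, from edgeR on sums of 3 libraries. Filled points passed adjusted p under 0.05. The 3 small members Hspb1, Hspb8 and Cryab lie right of 0 in all comparisons, with no fold drawn for Cryab over endothelial cells, and Hspa1a and Hspa1b lie left of 0 over endothelial and blood cells.

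The Hsp70 pair ran the other way, with the lowest mean levels in nucleus pulposus cells. That class also held the largest share of cells under 1% mitochondrial in each library. Hspa1a and Hspa1b, the stress-induced Hsp70 pair, lie side by side on chromosome 17 (34969190 to 34972156 and 34956436 to 34959238, minus strand) with 1 exon each. Their coding sequences were 99.5% identical in the annotation, but their 3′ UTRs were 54.9% identical over 851 aligned columns. The kit reads 3′ ends, and how reads shared by both copies were assigned is not given in the sources used here, so the split between the copies is uncertain and their sum is given too. Hspa1a had 173, 87.9 and 21.1 CPM in nucleus pulposus cells (94.1 ± 76.4, SD, n = 3), 387, 124 and 56.2 CPM in connective cells, 1347, 273 and 288 CPM in endothelial cells and 358, 138 and 277 CPM in blood cells. Nucleus pulposus cells were the lowest class in every library, and their values did not overlap with the endothelial ones. The log2 difference was -1.80 over endothelial cells (SE 0.49, adjusted p = 0.0134), -1.76 over blood cells (SE 0.49, adjusted p = 0.00763) and -0.76 over connective cells (SE 0.46, adjusted p = 0.300).

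Hspa1b had 71.5, 4.51 and 31.7 CPM in nucleus pulposus cells, from 178, 4 and 3 UMIs. Connective cells had 171, 31.8 and 31.1 CPM, endothelial cells 930.0, 180.2 and 150.4 CPM and blood cells 276, 68.6 and 166 CPM. The nucleus pulposus values were below all endothelial values and overlapped with those of connective and blood cells. The log2 difference was -3.03 over endothelial cells (SE 0.48, adjusted p = 0.000376), -2.88 over blood cells (SE 0.48, adjusted p = 0.000166) and -1.31 over connective cells (SE 0.46, adjusted p = 0.0706). Connective cells were also lower in Hspa1b than endothelial (-1.72, SE 0.41, adjusted p = 0.0059) and blood cells (-1.57, SE 0.39, adjusted p = 0.00283). In CPM, endothelial cells exceeded blood cells in Hspa1a in 3 of 3 libraries, but the TMM-scaled log2 differences were 0.04 for Hspa1a (adjusted p = 0.959) and 0.15 for Hspa1b (adjusted p = 0.812). The TMM factors were 1.33 to 1.65 in endothelial and 0.76 to 0.83 in blood sums. With both copies summed, nucleus pulposus cells were lower than endothelial (-2.13, adjusted p = 0.00231) and blood cells (-2.09, adjusted p = 0.00114), and not by the test lower than connective cells (-0.89, adjusted p = 0.170).

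The Hsp70 calls depended on the library block, and those of Hspa1a also on single libraries. Without the library as a block, Hspa1a over endothelial cells had adjusted p = 0.104 and over blood cells adjusted p = 0.174, and Hspa1b had adjusted p = 0.058 over endothelial and adjusted p = 0.0774 over blood cells. The same holds for Hspa1b in connective cells, with adjusted p = 0.162 over endothelial and adjusted p = 0.231 over blood cells. Leaving out library 1 ended the Hspa1a call over endothelial cells (-1.64, adjusted p = 0.0687), and leaving out library 3 that over blood cells (-0.99, adjusted p = 0.0506). Without cells under 1% mitochondrial, Hspa1a over endothelial cells was no longer called either (-1.47, adjusted p = 0.0516). Without library 2 the difference of Hspa1a over blood cells was -2.36. Without library 1 those of Hspa1b were -3.89 over endothelial and -4.11 over blood cells, and Hspa1b over connective cells became a call, at adjusted p = 0.0491.

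Dnajb1 (chromosome 8, 83608193 to 83612653, plus strand), the J-domain partner that hands clients to Hsp70, had 142, 41.7 and 31.7 CPM in nucleus pulposus cells and 218, 112 and 26.0 CPM in connective cells. Endothelial cells had 236, 61.8 and 52.3 CPM and blood cells 144, 66.6 and 105 CPM. All classes overlapped in range. Hsph1 (chromosome 5, 149614287 to 149636376, minus strand), Hsp110, which exchanges the nucleotide of Hsp70, had 38.9, 22.5 and 10.6 CPM in nucleus pulposus cells. Connective cells had 59.9, 20.6 and 10.9 CPM, endothelial cells 96.0, 20.6 and 0 CPM and blood cells 43.8, 20.3 and 20.4 CPM. Each was called in 0 of 6 comparisons by edgeR, with no unadjusted p under 0.05 and no call by DESeq2. The log2 differences of nucleus pulposus over connective, endothelial and blood cells were -0.67, -0.00095 and -1.01 for Dnajb1, with SEs of 0.47 to 0.51. In CPM, without TMM, Dnajb1 was lower in nucleus pulposus than in endothelial cells in 3 of 3 libraries, by log2 ratios of -0.73, -0.57 and -0.72, and lower than in blood cells in 3 of 3, by -0.02, -0.68 and -1.73. For Hsph1 the TMM-scaled log2 differences over connective, endothelial and blood cells were -0.16, 0.03 and -0.44, with SEs of 0.42 to 0.51. The 95% intervals over endothelial cells ran from -1.10 to 1.10 for Dnajb1 and from -1.05 to 1.12 for Hsph1, so these values do not show that the classes were alike. Dnajb1 became a call over blood cells without library 1, at adjusted p = 0.0341.

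Between the other classes, connective over endothelial cells had 1 member higher and 2 lower, where 26.1% of all genes were called, 15.5% higher and 10.6% lower. Connective over blood cells had 3 higher and 1 lower, where 59.3% of all genes were called, 31.3% higher and 27.9% lower. Endothelial over blood cells had 2 higher and 0 lower, with 41.1% of all genes called, 17.7% higher and 23.4% lower. Without library 2, 2239 genes were called between connective and endothelial cells, against 3508. At an unadjusted p under 0.05, and also by DESeq2, 0 members were lower in endothelial than in blood cells. The median log2 differences of the 8 members were 0.43, 0.10 and -0.14 in these comparisons, against 0.33, -0.02 and -0.36 for all genes. Leaving out library 1 or library 2 made Hspa1a a call in connective over blood cells, at adjusted p = 0.0153 and 0.0397.

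Within the connective cells, Cryab and Hspb1 took different places. Among the 4 sub-classes compared here, annulus or tendon fibroblast-like cells had the highest Cryab in each library, at 275, 401 and 343 CPM. Loose fibroblast-like cells followed at 202, 200.1 and 292 CPM. Connective cells without a sub-class name, not ranked here, had 193 to 685 CPM. Marrow stromal-like cells, summed in libraries 2 and 3 only, had 5.75 to 35.8 CPM. Chondrocyte-like cells had 95.1, 126 and 216 CPM and osteoblast-like cells 23.6, 124 and 145 CPM. Osteoblast-like cells of libraries 2 and 3 combined that Cryab with only 2.35 and 2.79 CPM of Hspb1, and with Hspb8 at 0 and 0.0819 CPM. A Cryab UMI was found in 64.0% and 70.4% of these cells (18.6% and 19.4% when thinned to 2000 UMIs), and an Hspb1 UMI in 1.78% and 1.65% (0.905% and 0.459% when thinned). In library 1 the 52 osteoblast-like cells differed from this, with 68.7 CPM of Hspb1, 27.9 of Hspb8 and 23.6 of Cryab. Chondrocyte-like cells had 109, 118 and 17.7 CPM of Hspb1 and annulus or tendon fibroblast-like cells 105, 331 and 30.6 CPM, lowest in library 3 in both. These sub-classes were not tested against each other, and only 34, 27 and 33 cells were of the annulus or tendon kind.

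The small members were found together in some classes and apart in others. As classes, nucleus pulposus cells held Hspb1, Hspb8 and Cryab, endothelial cells held Hspb1 without a detected Cryab UMI, and the osteoblast-like cells of libraries 2 and 3 held Cryab with hardly any Hspb1. Other connective sub-classes, as sums, held Hspb1, Hspb8 and Cryab as well. Their means were 156, 33.4 and 340 CPM in annulus or tendon fibroblast-like cells. In loose fibroblast-like cells they were 135, 44.2 and 232 CPM, and in chondrocyte-like cells 81.8, 21.8 and 146 CPM. In the blood, Hspb6 was highest in erythroid-like cells, at 13.5, 10.1 and 13.3 CPM, against 2.08 to 3.35 CPM in neutrophil-like cells. Chondrocyte-like cells had 12.2, 13.6 and 17.7 CPM of Hspb6, and osteoblast-like cells 2.11 to 4.29 CPM. Since the connective sums hold mostly chondrocyte-like cells in library 1 and mostly osteoblast-like cells in library 3, these differences enter the class values. Leaving chondrocyte-like cells out of the connective sums gave 4 members called against nucleus pulposus cells, where 21.1% of all genes were called. Leaving osteoblast-like cells out gave 3, where 16.8% of all genes were called.

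The Hsp70 pair was highest in macrophage or monocyte-like cells among the named blood sub-classes. Hspa1a stood there at 1464, 580 and 942 CPM, against 269, 102 and 207 CPM in neutrophil-like and 116, 29.3 and 77.1 CPM in erythroid-like cells. The ratio of the 2 copies also varied between sub-classes. Hspa1a made up 62.5%, 70.2% and 68.6% of the Hspa1a and Hspa1b UMIs in macrophage or monocyte-like cells and 70.3%, 81.8% and 78.8% in chondrocyte-like cells. In B lineage-like cells it was 46.7%, 53.7% and 57.4%, and in erythroid-like cells 47.1%, 51.3% and 47.6%. In nucleus pulposus cells it was 70.8% of 610 UMIs in library 1 (exact 95% interval 67.0% to 74.4%) and 95.1% of 82 UMIs in library 2 (88.0% to 98.7%), with only 5 UMIs in library 3. The macrophage and B lineage ranges did not overlap across the libraries. Across cells of 1 library, counts of the pair went together, with Pearson r of log values between 0.421 and 0.711 in the 4 sums with enough UMIs, a description over cells that share depth. These include the blood sums of libraries 1 and 3, which mix sub-classes of unlike Hsp70 level. How reads shared by the copies were assigned is not given, so r is not read as a relation within a cell.

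**Figure D3:**
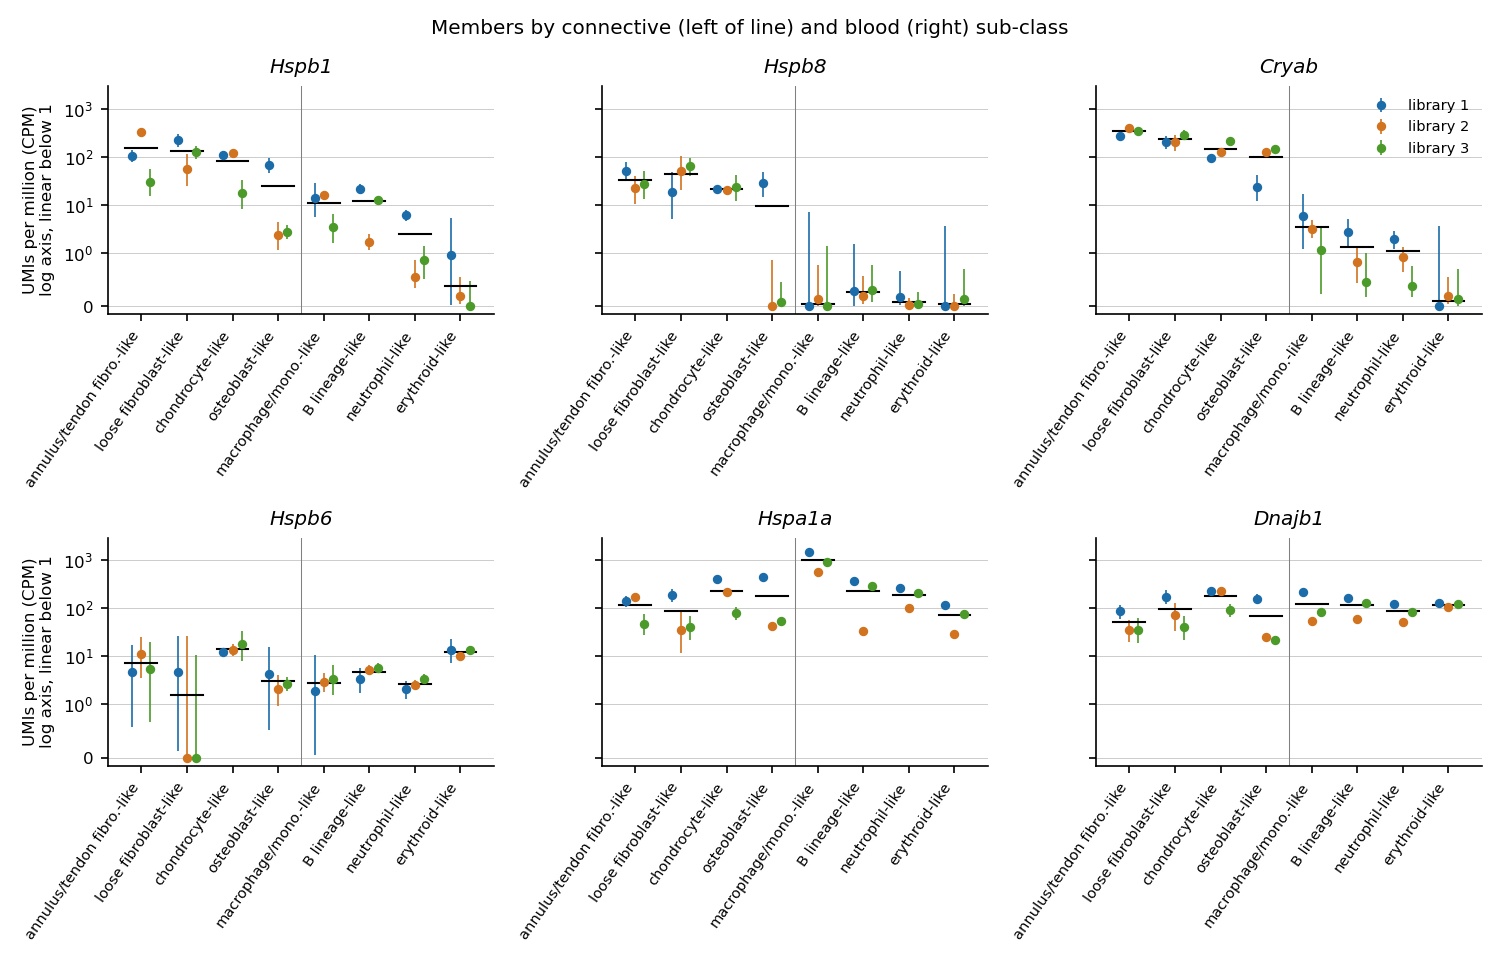
Level of 6 members in CPM (log axis that is linear below 1) in 4 connective and 4 blood sub-classes named from fixed markers. Each point is 1 library, with its exact 95% Poisson interval. Of the sub-classes shown, Cryab is highest in annulus or tendon fibroblast-like cells (275 to 401 CPM) and Hspa1a in macrophage or monocyte-like cells (580 to 1464 CPM).

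Within the nucleus pulposus, the levels were also read in cells low in mitochondrial RNA. Cells under 1% mitochondrial had 76.2, 71.0 and 65.0 CPM of Hspb8, against 68.3, 66.9 and 62.6 CPM in cells of at least 1%, with only 2 and 4 UMIs behind the values of library 3. Cryab had 1152, 1620 and 942 CPM in cells under 1%, against 1024, 477 and 689 CPM, so it was higher in the cells low in mitochondrial RNA in all 3 libraries. Hspb1 showed 2014, 1854 and 2859 CPM under 1% and 1538, 1881 and 438 CPM at or above it, with library 2 nearly level. Hspa1a went the other way in libraries 1 and 2, with 56.6, 42.6 and 32.5 CPM under 1%, against 318, 96.4 and 15.7 CPM. Dnajb1 had 37.0, 14.2 and 0 CPM under 1%, against 272, 46.9 and 47.0 CPM. In library 1 the cells of at least 1% thus had more Dnajb1 than connective, endothelial and blood cells (218, 236 and 144 CPM). In library 2 they had less (112, 61.8 and 66.6 CPM), and in library 3 their value rests on 3 UMIs. Their Hspa1a stayed below that of the other classes in libraries 1 and 2. Fos, an immediate early gene, had 119, 99.5 and 65.0 CPM under 1%, against 3466, 2704 and 219 CPM. The 2 groups also differed in depth, with median UMIs of 2416 and 3285.5 per cell under 1% against 8559.5 and 9772 in libraries 1 and 2. In library 3 the groups held 17 and 10 cells. The part of RNA quality in these differences was not tested, and no test between the groups was made.

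**Figure D4:**
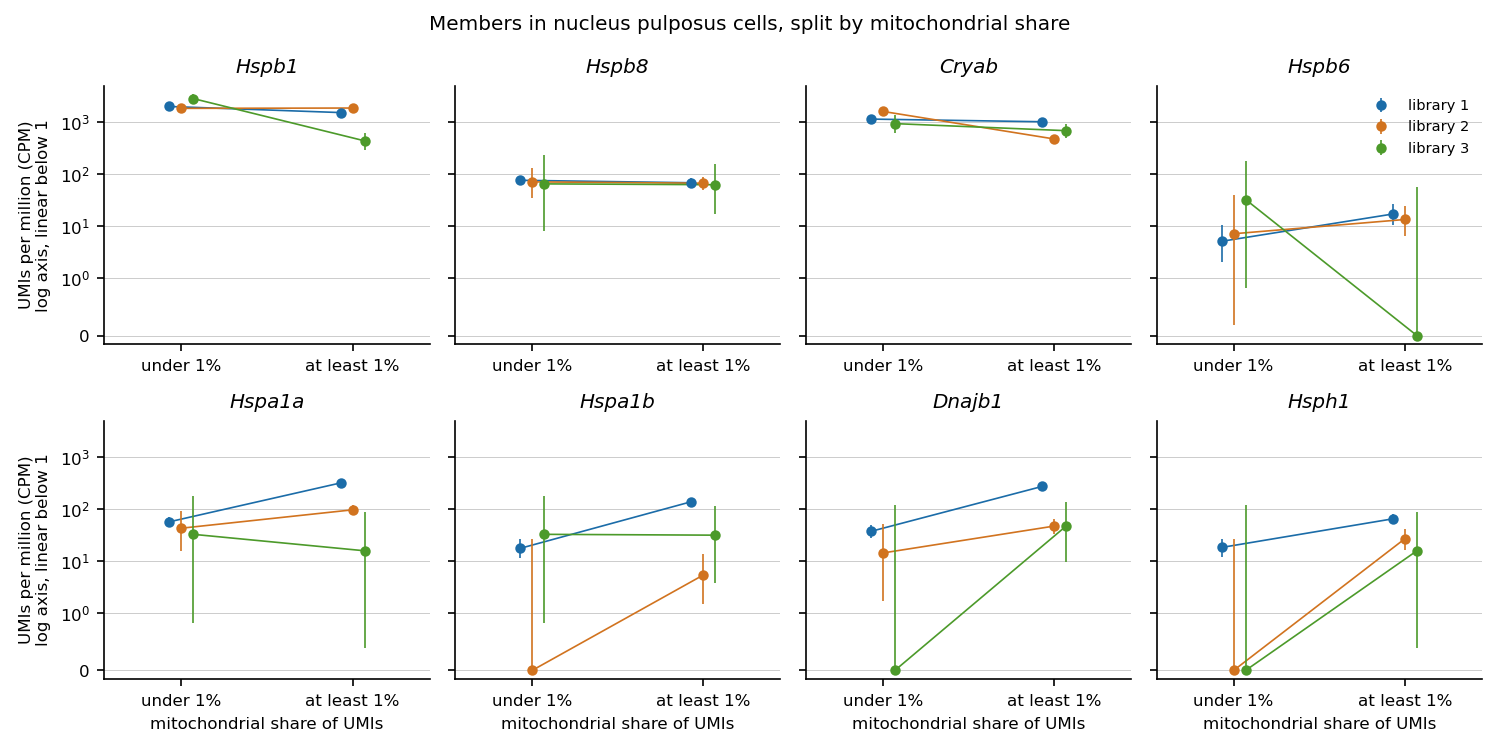
Level of each member in CPM in nucleus pulposus cells under 1% and at least 1% mitochondrial, by library, with exact 95% Poisson intervals. Hspa1a and Dnajb1 are higher at 1% and above in libraries 1 and 2 (318 and 96.4 CPM for Hspa1a, against 56.6 and 42.6 CPM), while Hspb8 lies between 62.6 and 76.2 CPM in both groups, with 2 and 4 UMIs in library 3.

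The inducible members differed between libraries in every class. All 16 pairings of the 4 inducible members with the 4 classes were highest in library 1, against 10 of 16 for the small members and 40.9% of all pairings of genes and classes. The small-member pairings include Cryab in endothelial cells, which was at 0 in each library and so could not be highest in any. By class, 31.8% of all genes were highest in library 1 in nucleus pulposus, 63.1% in connective, 28.2% in endothelial and 40.5% in blood cells. In nucleus pulposus cells of library 3, each inducible member had only 1 to 3 UMIs. Summed over the 4 inducible members, nucleus pulposus cells had 426, 157 and 95.1 CPM in libraries 1, 2 and 3, connective cells 836, 288 and 124 CPM, endothelial cells 2609, 535 and 491 CPM and blood cells 822, 294 and 569 CPM. The 4 small members summed to 2979, 2615 and 2071 CPM in nucleus pulposus cells, and to 1490, 438 and 379 CPM in endothelial cells. The 18 immediate early genes, which tissue dissociation is known to induce, were, when summed, likewise highest in library 1 in all 4 classes. They summed to 10401, 9689 and 1775 CPM in nucleus pulposus cells, 17878, 13193 and 1673 CPM in connective cells, 24416, 9144 and 5945 CPM in endothelial cells and 8496, 4244 and 5208 CPM in blood cells. Their part in the levels of the inducible members was not tested. The matrix of library 1 also came from another software version (3.0.1, against 6.0.0 in libraries 2 and 3). For library 1, the library, its litter and its software version cannot be told apart.

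**Figure D5:**
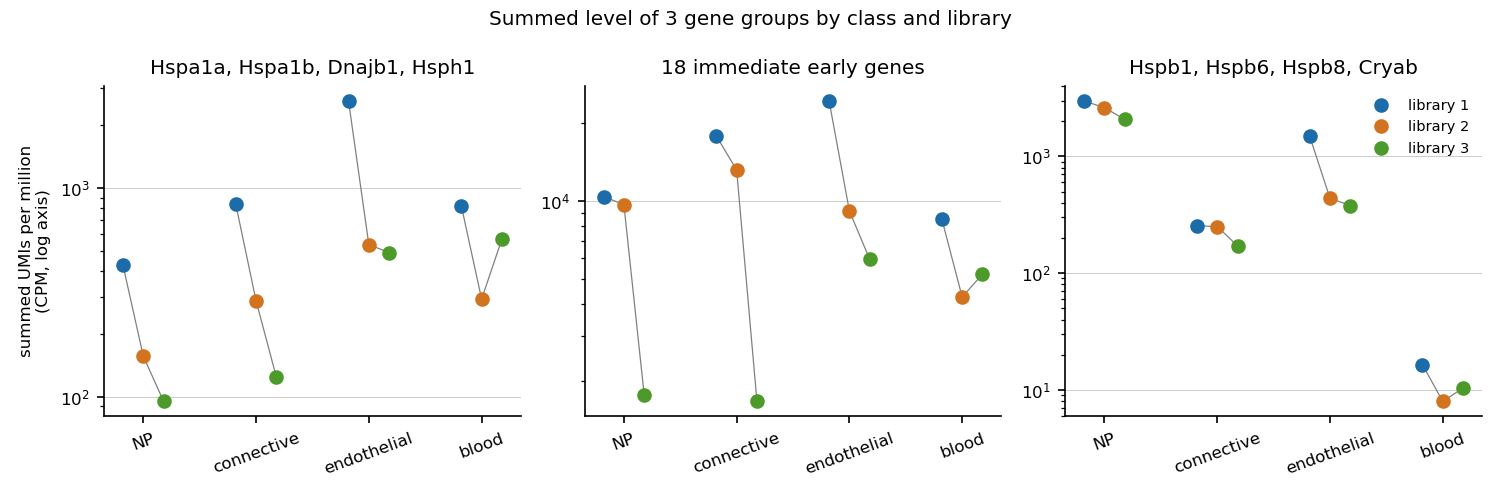
Summed level in CPM of the 4 inducible members, the 18 immediate early genes and the 4 small members, by cell class and library. The inducible members are highest in library 1 in each class, from 426 CPM in nucleus pulposus to 2609 CPM in endothelial cells.

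Other chaperones and their regulators, 39 tested genes of a list of 44, were counted in both directions. Between nucleus pulposus and connective cells 5 of them were higher and 1 lower, where 7.15% of all genes were higher and 9.04% lower, with a median log2 difference of 0.15, against -0.16 for all genes. Over endothelial cells 12 were higher and 0 lower by edgeR (3 lower at an unadjusted p under 0.05 and 4 by DESeq2), where 16.1% of all genes were higher and 12.3% lower, with a median of 0.43, against 0.23. Over blood cells 8 were higher and 7 lower, where 26.5% of all genes were higher and 25.5% lower, with a median of -0.12, against -0.08. The named genes were Hspa12a, an atypical Hsp70 relative, which was higher in nucleus pulposus over connective cells by 4.08 (adjusted p = 2.68e-05), and Serpinh1, the collagen chaperone, which was lower (-2.53, adjusted p = 0.00216). Hspa12a had means of 80.4 CPM in nucleus pulposus and 4.76 CPM in connective cells. Dnajb2, a J-domain co-chaperone, was also higher there, by 1.54 (adjusted p = 0.0168). Over endothelial cells Hspb11 was higher by 2.52. Hspa12a was called higher over endothelial cells too, but its mean there was 1.72 CPM. That lies under the floor of 3 UMIs over all endothelial cells (4.22 CPM), so no fold is given. Over blood cells Hspa12a was higher by 7.43 and Serpinh1 by 6.72, and Hspa14 and Hsp90aa1, a heat-inducible Hsp90, were lower (-1.60 and -1.32). Serpinh1 was uneven in nucleus pulposus cells, at 686 ± 604 CPM (SD, n = 3), against a mean of 4.53 CPM in blood cells. Of the 18 immediate early genes, 0 were called in nucleus pulposus over connective or endothelial cells by edgeR or DESeq2, with 0 higher and 2 lower at an unadjusted p under 0.05 over connective cells and 1 higher and 0 lower over endothelial cells. Over blood cells 3 were higher and 1 lower. Their median log2 differences were -0.54, -0.05 and -0.49 over connective, endothelial and blood cells, against -0.16, 0.23 and -0.08 for all genes.

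Among the 6242 genes with a mean of at least 20 CPM over the 12 class sums, a few had levels over these sums most like those of a small member, by Pearson r of log2(CPM + 1), given as a description over sums that share libraries. For Hspb1 they were Cav1 (0.981), Cav2 (0.972) and Atxn1 (0.970). For Cryab they were Daam2 (0.986), Ddr2 (0.980) and Cpxm2 (0.980), and for Hspb8 they were Tm2d1 (0.984), Ddah1 (0.977) and Smim19 (0.977). Hspb6 had weaker likenesses, to Hspa2 (0.934), Eef1akmt2 (0.934) and Gm26802 (0.918). Within nucleus pulposus cells, Hspb1 and Cryab counts had a Pearson r of 0.227 in library 1 and 0.197 in library 2, over 365 and 97 cells thinned to 2000 UMIs. Both values are positive but weak, and no relation is read from them. For Hspb8 the Pearson r was -0.04 and 0.14 with Hspb1 and -0.06 and -0.03 with Cryab.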

How the data were processed

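Single cells of mouse discs were profiled with the 10x Genomics 3′ v3 kit in 3 libraries. The deposited matrices hold counts, whole numbers of UMIs per gene and barcode without normalization. The submitters' processing notes name the tools Cell Ranger (3.0.2) and Seurat (4) and the build mm10, with no roles given, and per the file headers the matrices came from version 3.0.1 (library 1) and 6.0.0 (libraries 2 and 3). The libraries held 7430, 11767 and 11032 barcodes and 64695292, 145925353 and 137188648 UMIs. The files list 31053 genes in library 1 and 32285 in the others, of which 30406 shared IDs were used.

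A barcode was kept with 500 or more genes and no more than 15% of UMIs from mitochondrial genes. Cells needed 2 of 4 nucleus pulposus markers, 2 of 5 leukocyte or 3 of 6 erythroid markers, 3 of 8 endothelial markers or 3 of 40 connective markers. Nucleus pulposus cells could also hold connective markers, but those with 3 markers of a mural, muscle or Schwann type were left out, as were other cells in more than 1 gate. Doublets were otherwise treated only as an alternative, where Scrublet marked 1.48%, 5.21% and 4.29% of kept cells. Sub-classes went by the list with the most detected markers.

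UMIs were summed per library and class. The 12 sums were fitted together with edgeR 4.0.16 (limma 3.58.1, R 4.3.3; filterByExpr, TMM, quasi-likelihood test), with the library as replicate block because all sums of a library share 1 pool of animals, which the labels number. The p-values were adjusted by Benjamini-Hochberg across the 13446 genes, and values under 0.05 were called. The SE is the absolute log2 difference over the square root of F. CPM levels were scaled to the UMIs of the sum alone, without TMM. Poisson and Clopper-Pearson intervals (95%) and the floor of 3 UMIs cover counting error only. The test was tried on simulated counts with known differences, where it missed part of them, most often those against endothelial cells. Python 3.11.15, numpy 2.4.6, scipy 1.17.1, pandas 2.3.3, scanpy 1.11.5 and matplotlib 3.10.9 were used. Gene positions and transcripts are of GENCODE on GRCm38.

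The members and lists were chosen with earlier results of these data known. The text names the 8 members throughout. Of the list of other chaperones it names, per comparison, at most the 2 largest and 2 smallest differences among called genes with at least 50 CPM in the higher class, and for each small member the 3 genes of most similar level. Alternatives were RLE factors, no filter, DESeq2 1.42.0, no replicate block, each library left out, other gates, gene minimums (200, 1000) and mitochondrial limits (5%, 25%, a 1% floor), Scrublet, classes without a sub-class, only the 2 classes compared, both Hsp70 copies summed, and cells thinned to 2000 or 1000 UMIs. Added after the data were seen were the exclusion rule for other-type markers turned off, mixed blood and connective cells given to the class with 10 times the marker UMIs, and shared barcodes left out.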

Additional observations from a re-analysis of the deposited data

How the results depend on the processing

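Of 22 member calls, 15 stayed on their side of the threshold under every alternative fitted, and none of the 22 changed direction. Without the replicate block, 2 members rather than 5 were called in nucleus pulposus over endothelial cells, where 25.8% of all genes were called. Over blood cells it was 3 rather than 5, where 49.6% of all genes were called. All of the lost ones were Hspb1 or Hsp70 calls whose values stand beside those results. With a floor of 1% mitochondrial UMIs, 3 members were called over endothelial cells, where 22.8% of all genes were called. Over connective cells 1046 of all genes were called with that floor, against 2176. Fitting only the classes compared gave 2247 of 4481 tested genes over endothelial cells (50.1%), against 3829 of 13446 (28.5%). Leaving out 1 library gave 576 to 1778 genes called for nucleus pulposus over connective cells, 2017 to 2936 over endothelial and 5080 to 6638 over blood cells, 2239 to 2496 for connective over endothelial, 6289 to 8188 for connective over blood and 3698 to 4247 for endothelial over blood cells. The members called then numbered 3 to 4, 4 to 5, 5 to 6, 3 to 3, 4 to 5 and 2 to 2 in that order.

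The scaling and the test moved the share of higher calls against endothelial cells. With RLE factors in edgeR, 1782 genes were higher and 2031 lower in nucleus pulposus than in endothelial cells, 1740 and 1682 in connective over endothelial cells, and 2713 and 2636 in endothelial over blood cells. By DESeq2, which also changes the test, 1792 genes were higher and 2099 lower in nucleus pulposus than in endothelial cells, against 2170 and 1659 by edgeR with TMM, 1682 and 1843 in connective over endothelial cells, against 2079 and 1429, and 3279 and 2513 in endothelial over blood cells, against 2382 and 3141. The median of all genes over endothelial cells was 0.03 in nucleus pulposus with RLE factors, against 0.23 with TMM. Of 192 shares of cells thinned to a fixed depth, 155 moved by more than their interval.

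Uncalled values changed sign 44 times, on the log2 scale. In nucleus pulposus over connective cells these were Dnajb1 without chondrocyte-like cells (0.32) and Hsph1 with no block (0.016), 1 more marker (0.027), the 1% floor (0.20) and other-type cells kept (0.037). In nucleus pulposus over endothelial cells they were Dnajb1 with no block (0.074), 1 more marker (0.23), a 25% mitochondrial limit (0.0084), the 1% floor (0.48), at least 200 genes (0.017) or 1000 genes (0.13), Scrublet (0.0076), other-type cells kept (0.037), mixes resolved (0.020) and shared barcodes out (0.0024). Leaving out 1 library gave Dnajb1 -0.28 to 0.014 there. Hsph1 turned with RLE factors (-0.18), no filter (-0.26) and DESeq2 (-0.071), and ran from -0.19 to 1.14 with 1 library out. In connective over endothelial cells, leaving out chondrocyte-like cells turned Hspb6 (-0.40), Dnajb1 (-0.57) and Hsph1 (-0.15), and Hsph1 also turned with no block (-0.0081). With 1 library out, Hspb8 ran from -0.36 to 1.40 and Hsph1 from -0.0013 to 1.15. In connective over blood cells, Hspb6 turned without chondrocyte-like cells (-0.55), and Dnajb1 (0.15) and Hsph1 (0.20) without osteoblast-like cells. With 1 library out, Hspb6 ran from -0.12 to 1.02, Dnajb1 from -0.98 to 0.49 and Hsph1 from -0.59 to 0.019. In endothelial over blood cells, Hspa1a turned with a 5% mitochondrial limit (-0.016), the 1% floor (-0.17) and without neutrophil-like cells (-0.025), and Hspa1b with the 1% floor (-0.046). With 1 library out, Hspa1a ran from -0.45 to 0.70, Hspa1b from -0.22 to 0.72, Hspb6 from -1.75 to 0.34 and Hsph1 from -1.74 to 0.021. The cause of these changes was not tested. Depth limits the nucleus pulposus sum of library 3 and the endothelial sums most.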
